A study of Mus musculus with 19 samples.

Results

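The comparison described here set 2 mouse embryos labelled Alyref KO against 3 embryos of the same cross that were labelled blastocysts and not KO, 5 of the 19 embryos of the series. The KO embryos were morulae at 96 hours after insemination, when their cross mates of the other group had formed blastocysts. Both groups came from in vitro fertilisation of sperm and oocytes of Alyref+/- mice, carried the strain label B6D2F1, and grew in KSOM culture medium at 37 °C under 5% CO2. The non-KO embryos were wild type or heterozygous per the labels, which do not say which. The submitters called an embryo KO when its own library held no reads over the deleted region, so a low Alyref count is not an independent check of the genotype. All embryos were freed of the zona pellucida and lysed singly, 1 µl of lysate was replaced by ERCC spike-in RNA, and polyA RNA was amplified over 16 PCR cycles. A further 3 non-KO morulae of the cross, collected at the same time, are given beside the results, because stage and genotype cannot be told apart between KO morulae and non-KO blastocysts. No KO embryo of the series was labelled a blastocyst. The series also holds WT blastocysts and a second cross, in which Gabpb1 was the targeted gene. Nothing in the labels says which parents or litters the embryos came from. The p-values therefore measure the spread between single embryos within their groups. That spread was estimated over all 19 embryos of the series, not over the 5 compared here alone.

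Alyref encodes an adaptor of the TREX complex, which binds spliced and capped mRNA in the nucleus and hands it to the export receptor Nxf1. Blastocyst formation follows compaction of the morula: outer cells become trophectoderm, a polarised epithelium sealed by tight junctions, and pump ions and water inward to open the blastocoel, while inner cells become epiblast or primitive endoderm. Contraction of actin and myosin beneath the cell surface drives compaction and the sorting of inner and outer cells, and mitochondrial respiration rises as the blastocyst forms. Levels are given below in CPM (gene counts scaled to library size, with TMM factors over gene rows), and differences as log2 fold changes of KO morulae over non-KO blastocysts with their standard error (SE). A gene is called when its p-value, adjusted over all 18410 genes tested, is under 0.05. RNA of a whole embryo was measured, so fewer cells of a type and less RNA per cell cannot be told apart.

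Gene counts were 7486125 and 15226728 in the KO morulae and from 9818971 to 31536282 in the blastocysts. The log2 ratio of gene counts to ERCC counts was 6.94 and 6.81 in the KO morulae, against 6.43, 6.64 and 6.64 in the blastocysts, a difference of 0.30 (exact two-sided permutation test, p = 0.1, the smallest that 2 against 3 embryos can give). Both KO morulae and all 3 blastocysts held Y-linked transcripts, at 153 to 298 CPM, whereas 2 of the 3 non-KO morulae had under 1 CPM. Of 20 cumulus and granulosa markers, 18 were too low to test in any embryo set. The sum over the list was 19.4 and 13.2 CPM in the KO morulae, 13.5 to 26.1 CPM in the non-KO morulae and 4.77 to 9.39 CPM in the blastocysts, most of it Amhr2. Every morula thus lay above every blastocyst. Neither tested marker was called between KO morulae and blastocysts, and 1 was called higher in non-KO morulae than in blastocysts. Fshr, Cyp19a1 and Has2, among the 18 untested markers, had no count in any embryo of the cross, which says nothing of the others. Trophectoderm, epiblast and primitive endoderm markers were present in both groups, as described below.

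Alyref itself (ENSMUSG00000025134.2, chromosome 11, 120592121 to 120598365, minus strand, GRCm38) stood at 47.8 and 58.5 CPM in the KO morulae. It stood at 189, 239 and 239 CPM in the blastocysts and at 211, 291 and 162 CPM in the non-KO morulae, so the KO embryos lay below every other embryo of the cross. The difference was -2.06 (SE 0.30, adjusted p = 0.00307) against blastocysts and -2.06 (adjusted p = 0.0227) against non-KO morulae, comparisons that share the KO embryos. Counts of 362 and 877 remained in the KO libraries, and which exons they came from cannot be read from counts per gene. Over the 18 alternative settings the fold change ranged from -2.27 to -1.82, and the call was lost with ERCC scaling alone (adjusted p = 0.0717). The related gene Alyref2 was low, at 4.75 and 1.00 CPM in KO morulae and 2.30 to 2.71 CPM in blastocysts, and the groups overlapped.

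Across the transcriptome, 2389 of 18410 genes were called between KO morulae and blastocysts, or 13.0% of those tested: 1271 were higher in the KO morulae (6.90%) and 1118 lower (6.07%). The count followed the scaling: with ERCC RNA as the reference, which raises the median of all genes by 0.27, 505 genes were called higher and 22 lower. It also followed single embryos, falling to 735 without KO morula 1, 299 without KO morula 2, and 882, 781 and 1202 without blastocysts 1, 2 and 3. In the same fit the non-KO morulae differed from the same blastocysts in 2402 genes, again 13.0%, and KO morulae differed from non-KO morulae in 42 genes, 0.228%, of which 17 were higher and 25 lower. Without adjustment, p was under 0.05 for 5625 genes against blastocysts and for 2226 against non-KO morulae. The 42 calls became 1 with Y-linked RNA as a covariate, 8 with the replicate number as a block, 13 without the expression filter, 0 with ERCC scaling, 4 without KO morula 1 and 0 without KO morula 2, and 0 to 3 with a blastocyst left out of the shared fit. DESeq2 called 432, limma on log2(FPKM + 1) 164 and limma's voom 841 genes between these morulae. These contrasts share embryos in pairs, so each is given with its own values and no overlap is read from them. By counts scaled to library size, both KO morulae lay above every blastocyst in 4939 of the 18410 genes and below in 5489. Lack of overlap between the groups was thus common, also without a call. Calls in the gene lists below are to be set beside the 6.90% higher and 6.07% lower over all genes.

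The 12 largest falls included 3 contractile protein genes, a protease, genes of pluripotent cells and genes of secreted or surface proteins. Among the genes with a mean of at least 5 FPKM (CPM per kilobase of exon) over the 5 embryos and no overlap between groups, Actc1, the cardiac muscle alpha actin, had no count in either KO morula and 78.3, 14.7 and 17.1 CPM in the blastocysts. Set against 3 counts per group, that is at least 371-fold lower, or at least 117-fold without the highest blastocyst. No count of it was found in the 3 non-KO morulae either. BC051665, a member of the cathepsin family of proteases, stood at 0.264 and 0 CPM in KO morulae and 150, 446 and 59.7 CPM in blastocysts, a ratio of 2443 (95% interval 676 to 20171). That ratio rests on 2 counts, both in KO morula 1, and was 1438 without the highest blastocyst. Both Actc1 and BC051665 lost their call without KO morula 2 (adjusted p = 0.0577 and 0.0909). Intervals of this kind cover counting error only, since PCR reads without molecular identifiers are not independent molecules.

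Tcl1, a coactivator of Akt kinase and a pluripotency-associated gene, was at 0.264 and 0.0667 CPM in KO morulae, at 23.3, 8.57 and 13.6 CPM in blastocysts, and at 11.5, 4.90 and 40.4 CPM in non-KO morulae. Its ratio to the blastocysts was 131 (44.6 to 635), and the non-KO morulae lay on the blastocyst side. Tspan8, a tetraspanin of the cell surface, stood at 26.9 and 11.1 CPM against 990, 937 and 577 CPM in blastocysts, a change of -5.47 (SE 1.20, adjusted p = 0.0118); non-KO morulae had 18.1 to 91.1 CPM. Timp1, an inhibitor of metalloproteases, fell by 5.73, the X-linked mRNA export factor relative Nxf7 by 5.75, and the secreted phosphoprotein Spp1 by 5.31, all on the log2 scale. Spp1 lost its call with ERCC scaling and whenever any of the 5 embryos was left out. Timp1, Nxf7 and Tcl1 each lost it with ERCC scaling, without KO morula 1, without KO morula 2 and without 1 of the blastocysts, and Tspan8 with ERCC scaling and without either KO morula. Gm42793, which lies inside Spp1 on the same strand, cannot be counted as a separate fall. Tceal7, which overlaps Bex1 on the opposite strand and lost its call under 10 of the 18 alternatives, and the gene model Gm6665 complete the 12 largest falls with Myl9 and Cnn2, described next.

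Actin and myosin genes had the highest share of calls among the lists with at least 10 tested genes. Of 24 listed genes 20 could be tested; 17 were called lower, none higher, and all 20 estimates were negative, with a median of -1.82 beside 0.00 over all genes tested. The 4 untested genes (Acta2, Tagln, Cnn1, Cald1) mark smooth muscle. Summed over the list, KO morulae held 5676 and 4969 CPM and blastocysts 16712, 14029 and 12601 CPM. Calls fell to 3 with ERCC scaling (median -1.53), to 8 without KO morula 1 and to 4 without KO morula 2.

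Cnn2, the calponin of non-muscle cells, which binds actin and restrains myosin, was at 9.77 and 6.0 CPM in KO morulae and at 366, 320 and 206 CPM in blastocysts. Its change of -5.25 (SE 0.53, adjusted p = 0.000802) had the smallest adjusted p-value of all genes and was called under each of the 18 alternatives. The non-KO morulae, at 40.5, 30.8 and 33.2 CPM, lay between the 2 groups without overlap, and the difference of -2.16 from them missed the threshold (adjusted p = 0.0674).

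Myl9, a regulatory light chain of myosin, was at 0.792 and 0.267 CPM against 58.7, 35.6 and 66.1 CPM (log2 change -6.77, SE 1.28, adjusted p = 0.00665), and at 0 to 1.14 CPM in non-KO morulae. The cytoplasmic actins moved less. Actb was at 1553 and 1489 CPM in KO morulae against 4639, 3313 and 3187 CPM in blastocysts. Actg1 was at 1205 and 987 CPM against 3383, 3211 and 2816 CPM, a change of -1.52 (SE 0.23, adjusted p = 0.00307). For both actins the non-KO morulae lay between, at 1565 to 2475 CPM for Actb and 1369 to 1839 CPM for Actg1.

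Tpm1, a tropomyosin that lies along actin filaments, was at 136 and 120 CPM against 733, 676 and 537 CPM (-2.34, adjusted p = 0.00307). Tagln2, a transgelin, was at 258 and 202 CPM against 1408, 1010 and 1144 CPM (-2.37, adjusted p = 0.00335). Flna, which crosslinks actin filaments, was at 2.77 and 3.40 CPM against 63.8, 45.9 and 45.9 CPM (-4.06, adjusted p = 0.0147). In none of these 3 genes did a KO morula reach the lowest blastocyst, whereas the ranges of KO and non-KO morulae overlapped in each. The motors Myh9 (-2.79) and Myh10 (-2.12), the light chains Myl6 (-0.76), Myl12a (-1.39) and Myl12b (-1.42), the actinins Actn1 (-1.14) and Actn4 (-1.38), Cnn3 (-0.97) and Vcl (-2.81), the adhesion protein vinculin, were also lower. Tpm2, Tpm4 and Actg2 were not called, with adjusted p = 0.475, 0.134 and 0.0514. Non-KO morulae were lower than the same blastocysts in 18 of the 20 genes (median -1.74), and no gene of the list was called between KO and non-KO morulae (median -0.27).

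**Figure D1:**
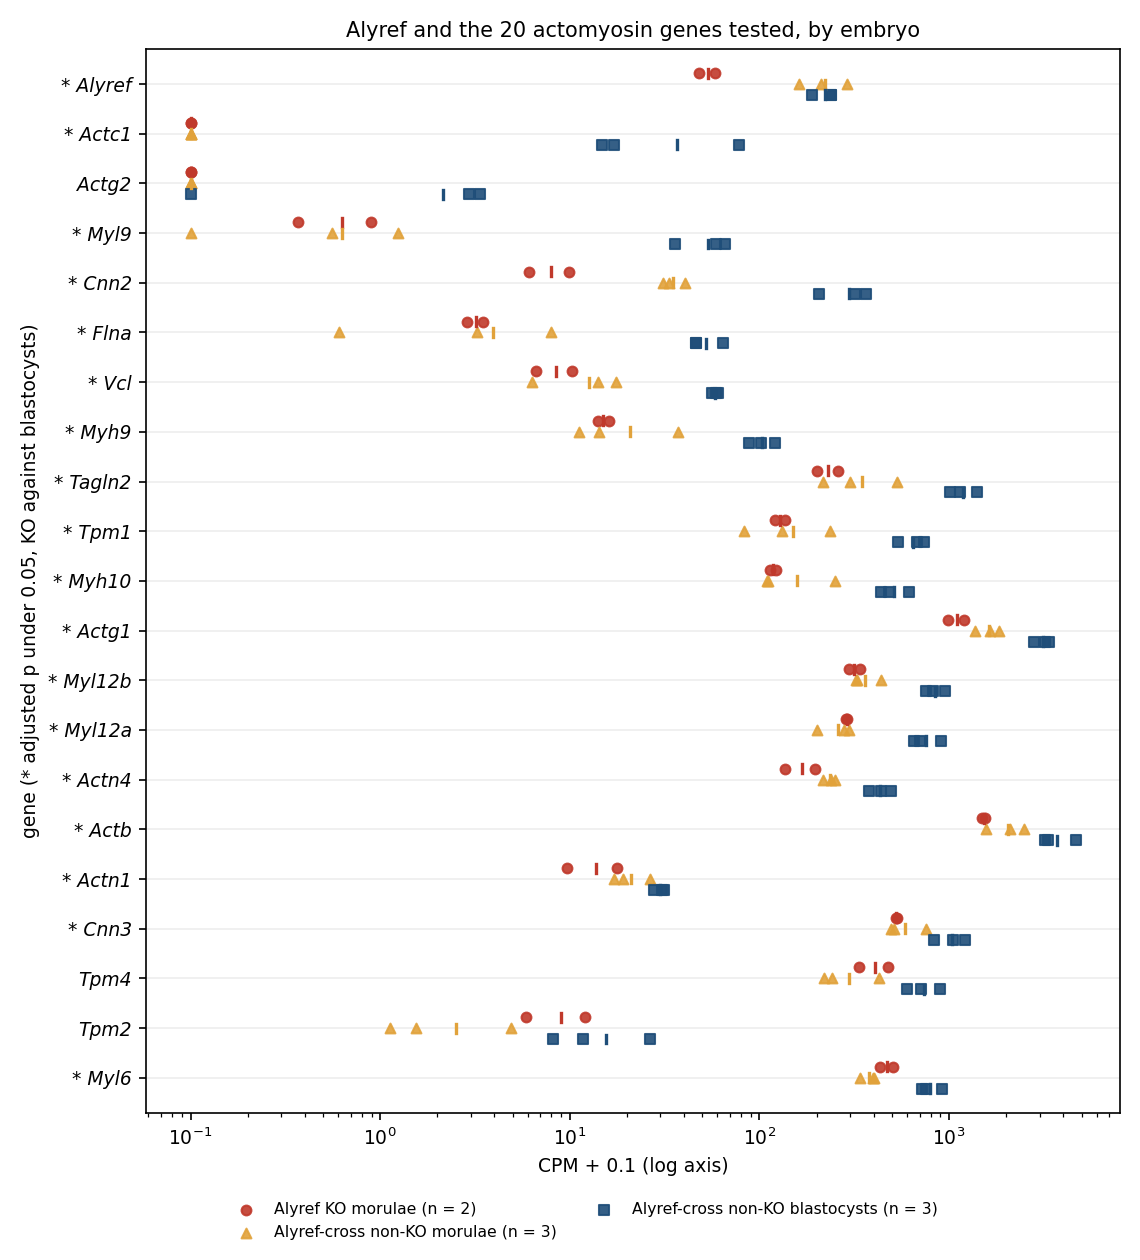
CPM of Alyref and the 20 tested actin and myosin genes in each embryo on a log axis (0.1 added), with a tick at each group mean and a star on genes called between KO morulae and non-KO blastocysts. The KO morulae sit below the blastocysts in the 17 called genes, and the non-KO morulae mostly lie near the KO morulae.

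Many genes of contractile proteins carry a CArG box, the binding sequence of serum response factor (SRF), and the promoters of the called actin and myosin genes were therefore searched for it, in the 250 bases upstream of the RefSeq start (GRCm38.p6). Of the 16 called genes with an entry, 6 held a CArG box (37.5%), as did 6 of the 18 tested genes of the list (33.3%). Of all 32851 promoter entries 482 held one (1.47%). Counted by gene, it was held by 1.31% of the tested genes, 2.31% of those called lower (17 of 737) and 1.24% of those called higher (9 of 724). The 17 include the 6 called genes of the list. The list was made up of contractile genes, which are known for this sequence, so its share describes the list and not the change. The box is its own reverse complement in form, so both strands are read at once, and a match is a description of the letters. Actb and Actg2 had no entry. The windows of 5 of the 6 genes are shown 5′ to 3′ on the gene's strand, because they let the position of the box, in capitals, be compared between genes with large and small falls. Each ends before the first exon base of the deposited annotation inside the window, or at the RefSeq start. For Actc1 the deposited annotation also has a start further upstream. They are chr10:79988350-79988583 (plus strand) for Cnn2, chr11:120348543-120348745 (minus strand) for Actg1, chr2:156775214-156775419 (plus strand) for Myl9, chr14:20929148-20929397 (plus strand) for Vcl and chr2:114052888-114053125 (minus strand) for Actc1.
Cnn2: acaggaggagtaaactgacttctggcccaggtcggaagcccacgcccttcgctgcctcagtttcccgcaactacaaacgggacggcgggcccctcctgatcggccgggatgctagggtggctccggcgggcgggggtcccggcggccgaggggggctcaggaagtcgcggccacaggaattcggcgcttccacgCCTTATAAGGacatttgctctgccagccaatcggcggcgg
Actg1: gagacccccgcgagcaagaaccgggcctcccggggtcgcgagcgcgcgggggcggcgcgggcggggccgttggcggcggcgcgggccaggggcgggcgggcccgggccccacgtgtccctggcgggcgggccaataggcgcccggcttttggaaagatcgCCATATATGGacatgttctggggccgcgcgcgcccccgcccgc
Myl9: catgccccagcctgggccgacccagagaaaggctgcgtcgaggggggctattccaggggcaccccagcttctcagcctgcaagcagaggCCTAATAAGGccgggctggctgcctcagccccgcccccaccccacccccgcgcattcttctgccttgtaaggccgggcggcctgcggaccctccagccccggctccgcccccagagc
Vcl: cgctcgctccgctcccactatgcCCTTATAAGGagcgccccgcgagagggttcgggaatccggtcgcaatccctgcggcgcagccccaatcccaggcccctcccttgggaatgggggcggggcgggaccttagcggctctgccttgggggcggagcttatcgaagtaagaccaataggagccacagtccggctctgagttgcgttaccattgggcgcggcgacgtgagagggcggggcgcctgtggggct
Actc1: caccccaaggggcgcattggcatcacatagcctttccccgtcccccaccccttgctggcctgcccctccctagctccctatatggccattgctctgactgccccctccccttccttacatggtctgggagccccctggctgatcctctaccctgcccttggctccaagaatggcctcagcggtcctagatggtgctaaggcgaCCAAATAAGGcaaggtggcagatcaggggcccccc
The first base of the box lay 47 bases upstream of the RefSeq start in Actc1, 50 in Myl6, 56 in Cnn2, 90 in Actg1, 161 in Myl9 and 227 in Vcl. Cnn2 and Vcl held the same 10 letters, and their falls were -5.25 and -2.81.

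Among the genes that build the outer epithelium, the estimates were mostly negative and few were called. Of 24 genes of cell junctions and polarity 6 were called lower and none higher, 22 estimates were negative, and the median was -1.12. Among the called genes were claudins of tight junctions, with Cldn4 at 194 and 112 CPM against 498, 419 and 355 CPM (-1.47, adjusted p = 0.008), Cldn7 (-1.25) and Cldn6 (-3.37), the tight junction scaffold Tjp1 (-1.42), and alpha catenin Ctnna1 (-0.98). Cdh1, which encodes E-cadherin, was at 101 and 85.9 CPM against 249, 259 and 256 CPM and missed the threshold (-1.45, adjusted p = 0.0525). Epcam, another adhesion molecule of epithelia, also missed it (-2.31, adjusted p = 0.0553), with KO values of 417 and 389 CPM below all 3 blastocysts (1606 to 2397 CPM). The 6 calls became 0 with ERCC scaling and 0 without KO morula 2. In non-KO morulae 9 of these genes were lower than in the same blastocysts (median -0.84), and none was called between KO and non-KO morulae.

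Of 11 tested keratins and desmosome genes 2 were called lower (median -1.59). Krt18, a keratin of simple epithelia, was at 605 and 201 CPM in KO morulae and 4118, 3266 and 2328 CPM in blastocysts (-3.01, SE 0.92, adjusted p = 0.0431), a call lost whenever any of the 5 embryos was left out. Pkp2, a plakophilin of desmosomes, was at 13.3 and 9.80 CPM against 46.7, 38.9 and 36.8 CPM (-1.82, adjusted p = 0.0131). Krt8, the partner of Krt18, was not called (-2.04, adjusted p = 0.0615). In non-KO morulae 5 of the 11 genes were lower than in the same blastocysts (median -1.53), and Krt18 was at 238, 254 and 907 CPM. No gene of this list was called between KO and non-KO morulae (median -0.19). Of 10 genes for blastocoel pumps and channels 1 was called lower, and the median was -1.08. In non-KO morulae 3 of them were lower and 1 higher than in the same blastocysts (median -1.27). Aqp3, a water channel of the trophectoderm, was at 254 and 182 CPM against 178, 239 and 149 CPM, and the groups overlapped.

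Trophectoderm transcription factors split. Of 16 tested, 3 were called lower, 2 higher and 11 not called (median -1.66). Gata3 was at 52.5 and 38.8 CPM against 244, 306 and 234 CPM (-2.52, adjusted p = 0.0371), Klf5 at 138 and 154 CPM against 411, 428 and 346 CPM (-1.43, adjusted p = 0.0155), and Elf5 at 0 and 0.667 CPM against 18.2, 22.4 and 5.31 CPM (-5.25, adjusted p = 0.0318). Tfap2c, an early factor of the lineage, was higher, at 92.4 and 78.6 CPM against 37.3, 39.5 and 40.2 CPM (1.13, adjusted p = 0.0282), and so was Hand1, at 56.1 and 15.5 CPM against at most 1.14 CPM (6.31, adjusted p = 0.0127). Cdx2 itself was at 10.3 and 8.4 CPM against 32.9, 27.8 and 25.0 CPM, below every blastocyst, as were 5489 of the 18410 genes tested. It missed the threshold (-1.61, adjusted p = 0.0562). Tead4, which acts upstream of it, was at 119 and 71.7 CPM against 95.4 to 98.5 CPM, with overlap. Between non-KO morulae and the same blastocysts 2 factors were called higher in the morulae and none lower (median -1.17). None was called between KO and non-KO morulae (median -0.34). Gata3 and Tfap2c lost their call whenever any of the 5 embryos was left out. No factor of the list was called without KO morula 1 or without blastocyst 2, and with ERCC scaling 1 was called higher and none lower.

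Of 17 genes of the Hippo pathway and its targets, which set the outer or inner fate, the kinase scaffold Sav1 was called higher (1.92, adjusted p = 0.0104), and the angiomotin Amotl2 (-3.10, adjusted p = 0.027) and 1 of the 2 gene rows named Lats2 (-1.62, adjusted p = 0.0324) lower, around a median of 0.04. Of 16 endocytic receptors and lysosomal genes, which load the trophectoderm with nutrients, Ctsz (1.90) and Lamp2 (1.84) were higher and Psap (-1.31) lower, around a median of -0.35. Without KO morula 1, or without KO morula 2, none of these lysosomal genes was called. Over all genes tested 13.0% were called. The plot of fold changes by gene list sets each list's calls beside its median.

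**Figure D2:**
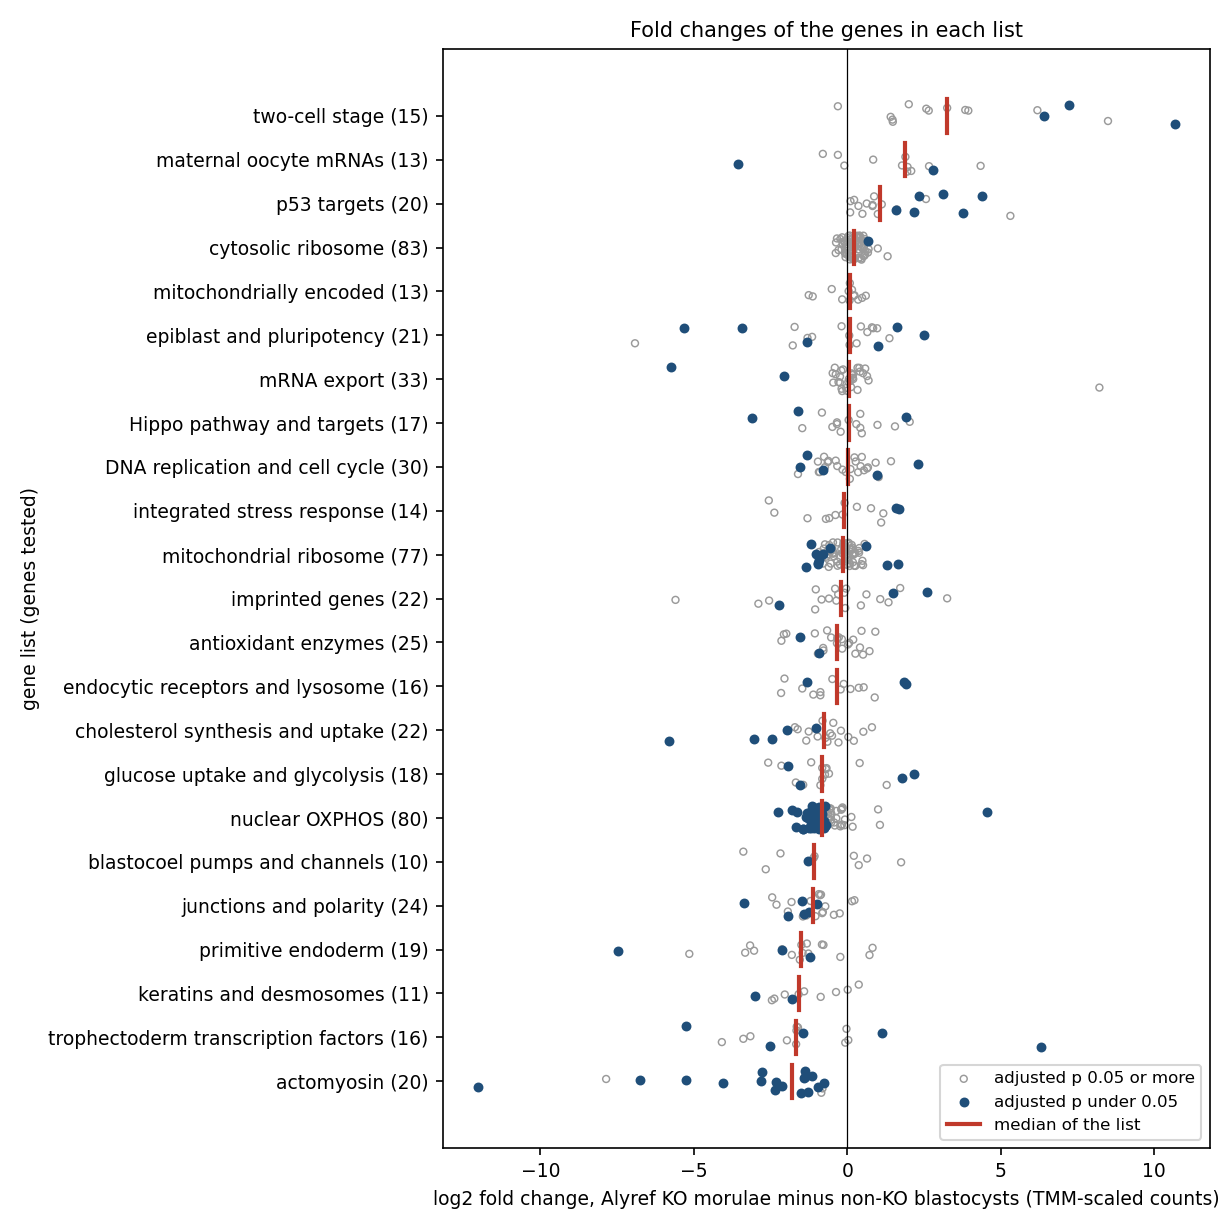
Log2 fold changes of KO morulae over non-KO blastocysts on the horizontal axis, with a row for each gene list of at least 10 tested genes, a point for each gene (filled when called) and a bar at the list's median. Actin and myosin genes have 17 of 20 called lower and nuclear OXPHOS genes 44 of 80, while p53 targets have 6 of 20 called higher.

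Most epiblast genes were not called, and the called ones went both ways. Of 21 epiblast and pluripotency genes 3 were higher, 3 lower and 15 not called, beside 6.90% higher and 6.07% lower over all genes tested. The median of the list was 0.07. Nanog, a transcription factor of the pluripotent epiblast that is also present in earlier inner cells, was at 511 and 478 CPM in KO morulae and 105, 69.5 and 89.9 CPM in blastocysts. The rise of 2.49 (SE 0.27, adjusted p = 0.000982) was called under all 18 alternatives. Non-KO morulae were at 375, 284 and 361 CPM, also below the KO morulae and above every blastocyst, and the difference from KO morulae was 0.54 (adjusted p = 0.437).

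Dppa2, a chromatin protein of early embryos, was at 985 and 1180 CPM against 426, 283 and 365 CPM (1.6, adjusted p = 0.0164), and Tbx3 rose by 1.00 (adjusted p = 0.0423). Gdf3, a TGF-beta family ligand, was at 5.81 and 4.80 CPM against 50.9, 42.6 and 77.9 CPM (-3.43, adjusted p = 0.00639), and non-KO morulae, at 81.7, 21.6 and 98.9 CPM, lay with the blastocysts. Dppa5a, an RNA-binding protein of pluripotent cells, was at 1328 and 1028 CPM against 3518, 2910 and 2405 CPM (-1.32, adjusted p = 0.00789). Spp1, given above, was also lower. Pou5f1, which encodes Oct4, was at 80.1 and 57.5 CPM against 55.6 to 79.3 CPM, overlapping the blastocysts, and Sox2 was low throughout (2.38 and 1.27 CPM against 4.42 to 6.83 CPM, not called).

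Of 19 primitive endoderm genes 3 were called lower and none higher, with a median of -1.50. Lamc1, a laminin chain of the basement membrane, was at 14 and 14.5 CPM against 69.9, 62.7 and 55.4 CPM (-2.13, adjusted p = 0.0292). Serpinh1, a collagen chaperone, had 1 count in 1 KO morula and 6.71 to 15.5 CPM in blastocysts, a ratio of 193 (34.5 to 7641), and P4ha2, a prolyl hydroxylase of collagen, fell by 1.22. Gata6, the early factor of the lineage, was at 123 and 177 CPM against 85.8 to 94.5 CPM, above every blastocyst but not called (0.72, adjusted p = 0.0829). The later factors Gata4 (-2.13) and Sox17 (-1.55) were not called, and Sox17 was at 17.7 CPM in KO morula 1 and at 0 in KO morula 2. None of the 19 genes was called with ERCC scaling, without KO morula 1 or without KO morula 2, and Lamc1 also lost its call without any one blastocyst. With the WT blastocysts of the series as the reference 11 genes were lower and 1 higher, with a median of -3.06. Non-KO morulae were lower than the blastocysts of the cross in 3 genes and higher in 1 (median -1.27). None of the genes was called between KO and non-KO morulae (median -0.45).

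Nuclear genes of oxidative phosphorylation formed the largest group of lower genes by number. Of 80 tested, 44 were called lower and 1 higher, 75 estimates were negative, and the median was -0.84 beside 0.00 over all genes. The list summed to 17508 and 19386 CPM in KO morulae and 33940, 31381 and 29051 CPM in blastocysts. All 5 complexes took part: 17 of 36 subunit and assembly genes of complex I (median -0.84), 3 of 4 of complex II (-1.31), 5 of 8 of complex III (-0.96), 8 of 16 of complex IV (-0.70) and 11 of 16 of complex V (-0.86) were lower.

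Uqcrfs1, the Rieske iron-sulphur subunit of complex III, was at 108 and 135 CPM in KO morulae and 421, 445 and 416 CPM in blastocysts (-1.82, SE 0.27, adjusted p = 0.00307). The non-KO morulae, at 278, 194 and 337 CPM, lay between the groups without overlap. Sdhd, a membrane anchor of complex II, was at 75.8 and 71.6 CPM against 378, 326 and 345 CPM (-2.25, adjusted p = 0.00686), and the flavoprotein Sdha fell by 1.65 (adjusted p = 0.00896). Atp5b, the catalytic beta subunit of ATP synthase, was at 1829 and 1302 CPM against 2994, 2879 and 2279 CPM (-0.79, adjusted p = 0.0408). The single higher gene, Cox6a2, encodes a heart and muscle isoform and stood at 1.06 and 1.93 CPM against at most 0.0949 CPM, a ratio of 31.5 (9.97 to 160). Its call was lost under 11 of the 18 alternatives. The exons of Cox6a2 overlap Itgad on the opposite strand, and the strand setting of the counting is not given in the sources used here.

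The calls depended on the scaling: none of the 80 genes was called with ERCC scaling, where the median was -0.58 against 0.27 over all genes. They were 9 without KO morula 1, 12 without KO morula 2 and 21 to 32 without a blastocyst. Non-KO morulae were lower than the same blastocysts in 35 of the genes (median -0.67), and none was called between KO and non-KO morulae (median -0.19). The 13 mitochondrially encoded mRNAs gave no call in the edgeR test, with a median of 0.08 and estimates from -1.26 to 0.60; the percent of counts from them was 3.30 and 3.48 in KO morulae and 3.94 to 4.29 in blastocysts. Of 77 genes with the symbol of a mitochondrial ribosomal protein 8 were lower and 3 higher, beside 6.07% and 6.90% over all genes. Among the lower was Mrpl23 (-1.19), and the higher were Mrpl22 (1.65), Mrpl39 (1.28) and Mrps18b (0.59). The median of that list, -0.13, became 0.14 with ERCC scaling.

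**Figure D3:**
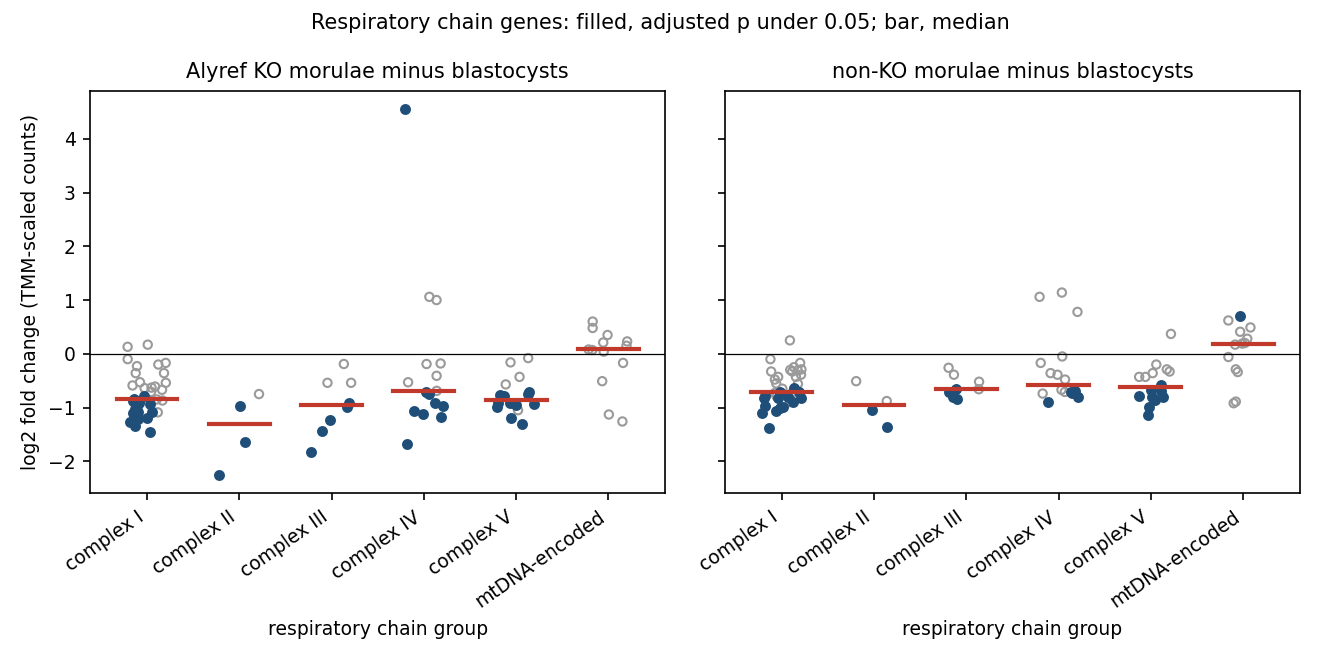
Log2 fold changes of nuclear OXPHOS genes by respiratory complex and of the 13 mitochondrially encoded genes, for KO morulae minus non-KO blastocysts in the left panel and non-KO morulae minus the same blastocysts in the right, with a point for each gene (filled when called) and a bar at the median. Of the 80 nuclear genes 75 lie below 0 in each panel, and the blastocysts are shared.

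Other metabolic lists had smaller shares of called genes. Of 22 genes of cholesterol synthesis and uptake 5 were lower and none higher (median -0.76), among them Srebf2, the transcription factor of the pathway, at 0.132 and 0.467 CPM against 25.3, 18 and 14.2 CPM (-5.81, adjusted p = 0.0132), the kinases Mvk (-3.03) and Pmvk (-1.97) and the isomerase Ebp (-1.01). The list summed to 750 and 642 CPM in KO morulae and to 1731, 865 and 754 CPM in blastocysts, so that blastocyst 1 stood apart from the other 2. Without blastocyst 1 the median was -0.32, with 14 negative estimates in place of 18. No gene of the list was called with ERCC scaling or without KO morula 2. Non-KO morulae were lower than the same blastocysts in 3 cholesterol genes (median -0.67). Of 18 genes of glucose uptake and glycolysis 14 had negative estimates, with a median of -0.82 (-1.45 without KO morula 1). Gapdh (-1.93) and Pgk1 (-1.56) were lower and the neuronal enolase Eno2 (1.77) and hexokinase Hk1 (2.18) higher, beside 6.07% and 6.90% over all genes. The calls of Pgk1, Eno2 and Hk1 were lost without any one blastocyst, and that of Gapdh without blastocyst 1 or 2. Between non-KO morulae and blastocysts 6 of the 18 genes were lower in the morulae and 2 higher (median -0.70). Neither list had a call between KO and non-KO morulae. Among 25 antioxidant genes the peroxiredoxin Prdx4 (-0.94) and Gpx7 (-1.55) were lower, beside 6.07% of all genes tested.

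Transcripts controlled by p53, the factor that halts division or triggers cell death after damage, were higher in part. Of 20 tested targets 6 were called higher and none lower, and all 20 estimates were positive (median 1.06). The list summed to 1585 and 1638 CPM in KO morulae, 640, 472 and 593 CPM in blastocysts, and 1234, 1451 and 951 CPM in non-KO morulae. Cdkn1a, which encodes the cell cycle inhibitor p21, was at 541 and 610 CPM in KO morulae and 47.6, 22.2 and 58.1 CPM in blastocysts, a rise of 3.76 (SE 0.84, adjusted p = 0.013). Non-KO morulae were at 185, 329 and 132 CPM, between the groups without overlap.

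Ddit4, an inhibitor of mTORC1 signalling, was at 21.5 and 48.1 CPM against 0.774, 1.68 and 2.66 CPM (4.39, adjusted p = 0.0152). Tnfrsf10b, a death receptor, was at 49.6 and 60.0 CPM against 12.7, 10.6 and 9.58 CPM (2.32, adjusted p = 0.00762). Sesn2, a sestrin, was at 37.4 and 42.1 CPM against 13.9, 13.1 and 13.1 CPM (1.57, adjusted p = 0.0119). In these 3 genes each KO morula lay above every non-KO embryo of the cross, but none was called against non-KO morulae. How many of all genes tested have this order was not counted. The kinase Plk2 (3.10) and the autophagy-linked Trp53inp1 (2.18) were also higher, with non-KO morulae overlapping the KO morulae. Mdm2, the ligase that degrades p53, was at 87.6 and 116 CPM against 44.6 to 58.6 CPM and was not called (0.99, adjusted p = 0.113), and the death effector Bax differed by 0.09. The 6 calls were 4 without KO morula 1, 0 without KO morula 2, and 3, 2 and 4 without blastocysts 1, 2 and 3. Non-KO morulae were higher than the same blastocysts in 5 targets (median 0.98), and none was called between KO and non-KO morulae (median 0.11).

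**Figure D4:**
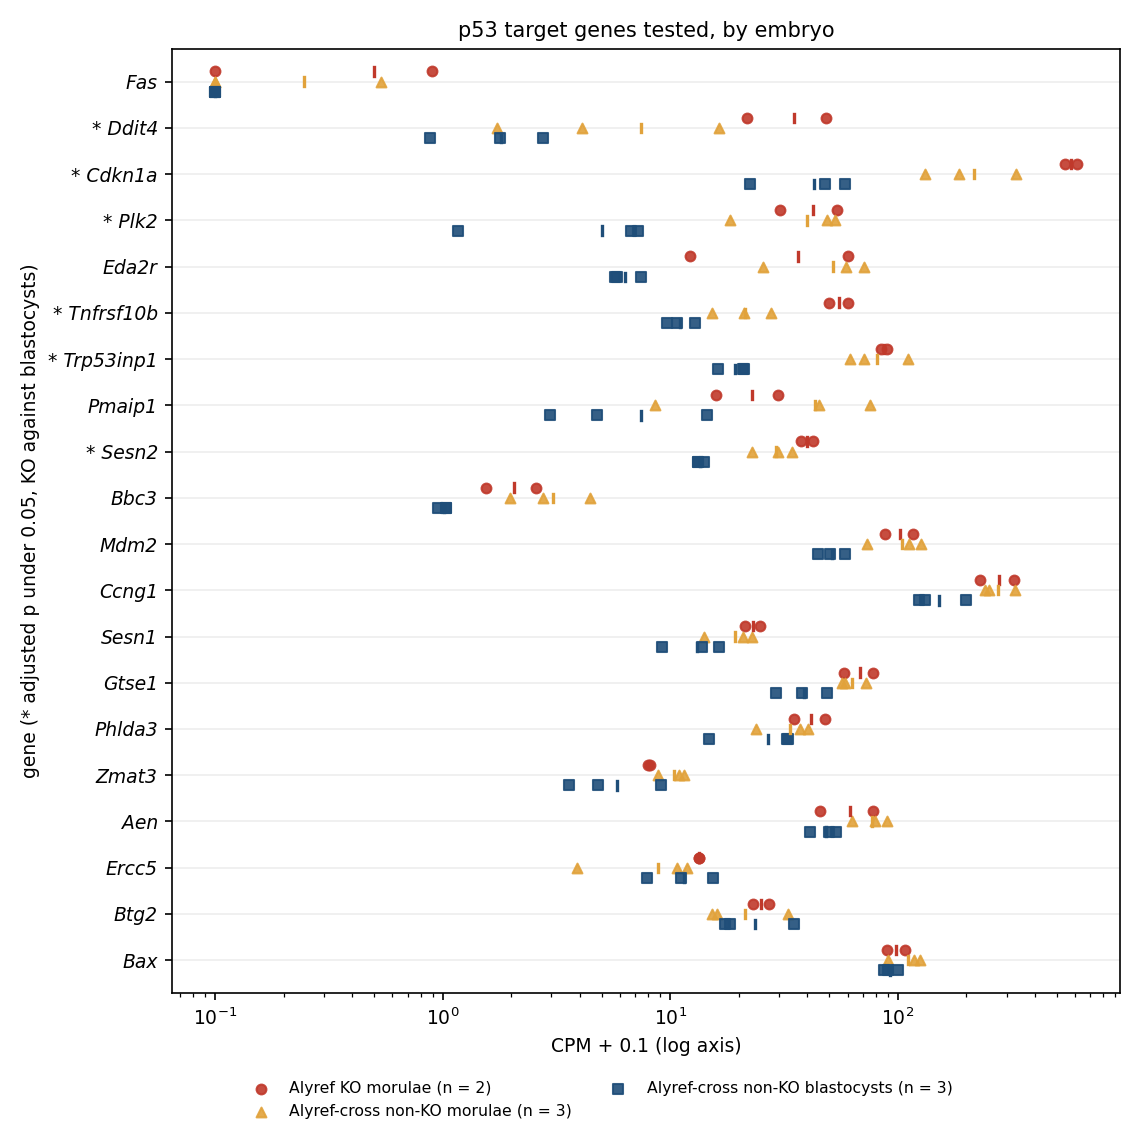
CPM of the 20 tested p53 target genes in each embryo on a log axis (0.1 added), with a tick at each group mean and a star on called genes. Both KO morulae lie above all 3 blastocysts in the 6 called genes, and in Cdkn1a, Ddit4, Tnfrsf10b and Sesn2 they also lie above all 3 non-KO morulae. None of the 20 genes was called between KO and non-KO morulae, and the share of all genes with this order was not counted.

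Of 14 genes of the integrated stress response, the programme set off by phosphorylated eIF2 alpha, Sesn2 and the serine synthesis enzyme Psat1 (755 and 675 CPM against 159, 283 and 230 CPM, 1.67, adjusted p = 0.0155) were higher, and the list median was -0.12. That median changed sign with the setting, to 0.10 with ERCC scaling, 0.21 with the replicate block and 0.97 without blastocyst 2. Of 30 genes of DNA replication and the cell cycle, 2 were higher and 3 lower, beside 6.90% and 6.07% over all genes. Their median was 0.02. Ccne1, the cyclin that starts S phase, was at 298 and 238 CPM against 60.7, 37.3 and 63.7 CPM (2.31, adjusted p = 0.0248), and the origin loading factor Cdc6 rose by 0.96. The mitotic cyclin Ccnb2 was at 128 and 105 CPM against 385, 333 and 289 CPM (-1.53, adjusted p = 0.0047), and Cdk2 (-1.32) and the helicase subunit Mcm4 (-0.78) were lower. Ccne1, Cdc6, Cdk2 and Mcm4 lost their call without any one blastocyst. Of 22 imprinted genes Sgce (2.60, a call lost without any one blastocyst) and Gnas (1.47) were higher and the amino acid transporter Slc38a4 (-2.24) lower. Their median of -0.20 became 0.09 with ERCC scaling, 0.05 without KO morula 2 and 0.24 without blastocyst 3. These few calls, too, stand beside the 13.0% called over all genes.

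Of the 12 largest rises 6 were pseudogenes. Ighv1-60, Gm11544, A430060F13Rik, AA623943 and Gm11546 are unprocessed or immunoglobulin pseudogenes, and reads shared with related copies make their counts uncertain; Gm11544, A430060F13Rik, AA623943 and Gm11546 lie within one stretch of chromosome 11, from 94797049 to 94861759. AA623943 was at 25.7 and 22.4 CPM in KO morulae and at most 0.190 CPM in blastocysts (7.70, adjusted p = 0.00686, called under all 18 alternatives), and at 4.4, 14.5 and 0.777 CPM in non-KO morulae. Gm11544 had no count in any blastocyst and 22.8 and 28.7 CPM in KO morulae, at least 514-fold higher. Ighv1-60, at 7.79 and 63.3 CPM against no count, was at least 858-fold higher with both KO morulae and at least 150-fold without the higher of them.

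Among protein-coding genes, Elovl3, an elongase of long fatty acids, was at 13.9 and 30.8 CPM in KO morulae, with a single count over the 3 blastocysts, a ratio of 1448 (259 to 57286). Non-KO morulae held at most 0.591 CPM, so the KO morulae stood above all other embryos of the cross, although the difference from non-KO morulae was not called (6.41, adjusted p = 0.112). Prl3b1, a placental lactogen, was at 22.7 and 59.9 CPM against 0.226, 0.310 and 1.04 CPM (6.41, adjusted p = 0.0081). Rfpl4b, a protein of the ret finger family, was at 4.75 and 30.5 CPM against at most 0.124 CPM (7.84, adjusted p = 0.019). The remaining largest rises were Tdpoz4, the lincRNAs AC121569.2 (7.77) and CT010475.1 (6.91), and the pseudogene Gm9043 (6.80).

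Of 15 tested genes of the two-cell stage, when the mouse genome is first transcribed in bulk, 3 were called higher and none lower, with a median of 3.25. Tdpoz4 was at 8.05 and 42.1 CPM against at most 0.226 CPM (7.23, adjusted p = 0.0243) and Usp17lb at 8.18 and 11.3 CPM against at most 0.380 CPM (6.40, adjusted p = 0.0432). Zfp352 was at 28.5 CPM in KO morula 2 and had no count in KO morula 1 or in any blastocyst, so its rise rests on 1 embryo. The list summed to 386 and 644 CPM in KO morulae and 429 to 523 CPM in blastocysts, so the sums overlapped. No call remained without KO morula 2 or without any single blastocyst, and the median fell to 1.43 without KO morula 2. In non-KO morulae 4 of these genes were higher than in the same blastocysts (median 3.76).

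Of 13 tested maternal oocyte mRNAs the zona pellucida gene Zp3 was higher, at 3.30 and 2.33 CPM against at most 0.677 CPM (2.79, adjusted p = 0.0397), and Ooep, part of the subcortical maternal complex, was lower. The call of Zp3 was lost under 10 of the 18 alternatives, among them the fit without the expression filter and those without any one blastocyst. Ooep was at 11.5 and 8.4 CPM in KO morulae and 128, 141 and 83.2 CPM in blastocysts (-3.57, SE 0.64, adjusted p = 0.00514). Non-KO morulae were at 41.6, 38.2 and 60.6 CPM, between the groups without overlap. The others of the 41 listed genes, Gdf9, Bmp15 and Nlrp5 among them, were too low to test or had no row under the listed symbol.

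By mean FPKM rather than by ratio, the largest gain was that of the processed pseudogene Gm12617 (8090 against 1550 FPKM), followed by Gm5612 (2940 against 367 FPKM). The protein-coding genes among the 5 largest gains were Timd2, a cell surface receptor of the TIM family, and Alppl2, an alkaline phosphatase of the placental group. Timd2 was at 7603 and 11575 CPM in KO morulae and 1626, 1280 and 1457 CPM in blastocysts (2.72, SE 0.45, adjusted p = 0.00444). Alppl2 was at 3887 and 2398 CPM against 65.6, 275 and 173 CPM (4.20, SE 0.81, adjusted p = 0.00712). Both were called under all 18 alternatives, and in both the non-KO morulae (2215 to 7149 CPM and 747 to 2654 CPM) exceeded every blastocyst. The processed pseudogenes Gm12617 (2.42), Gm5612 (3.04) and Gm6055 (1.13), the other 3 of the 5, share sequence with their parent genes. On the side of losses stood Krt18, Dppa5a and the protease inhibitor Cstb, at 471 and 427 CPM against 1087, 1329 and 961 CPM (-1.33, adjusted p = 0.00712). The miRNA rows Gm23419 and Mir147 completed the 5 largest losses and lie within exons of Actg1 and AA467197 on the same strand, so their counts cannot be told apart from those of the host mRNA.

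Genes near the floor in 1 group were similar in number each way. Of the 18410 genes, 169 had at most 3 counts in each KO morula and at least 1 FPKM in every blastocyst, and 162 the reverse. The 5 most abundant of the first kind were BC051665, Actc1, Gm6665, Timp1 and the miRNA row Mir351, which was not called (-2.97, adjusted p = 0.158). The rule sets counts, not scaled to library size, against FPKM, so it does not measure absence in short rows. Mir351, for example, had a mean of 2.34 FPKM in KO morulae. Of protein-coding genes with 1 exon 18 of 409 were higher (4.4%) and 10 lower (2.44%), against 7.90% and 7.88% of 11109 with 2 or more exons. Of 689 lincRNAs 62 were higher (9.0%) and 20 lower (2.90%), with a median of 0.37. Of 3189 processed pseudogenes 5.58% were higher and 3.86% lower. Protein-coding genes split into 4 length classes had 7.19% to 8.44% called higher and 7.05% to 8.09% lower in each class.

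Of 33 tested genes of mRNA export, the process Alyref serves, 2 were called, Alyref and Nxf7. Both were lower, beside 6.07% of all genes tested, and the median of the list was 0.05. The receptor Nxf1 was at 143 and 95.3 CPM against 129, 126 and 109 CPM, overlapping the blastocysts, the TREX helicase Ddx39b differed by 0.05 (SE 0.30), Thoc1 by -0.46 (SE 0.27) and Thoc2 by -0.41 (SE 0.30). Of 83 cytosolic ribosome genes only Rps19 was called (0.66, adjusted p = 0.049), a call lost under 12 of the 18 alternatives. The list median was 0.21, with KO morulae summing to 37820 and 47943 CPM and blastocysts to 34036 to 36955 CPM. Without KO morula 2 that median was -0.05.

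A last set of genes separated the KO morulae from both non-KO groups. Against both the blastocysts and the non-KO morulae, 9 genes were called higher and 23 lower, and none in opposite directions. The 2 tests share the KO embryos, so the count is a description. Both KO morulae held Y-linked RNA and 2 of the 3 non-KO morulae held under 1 CPM of it, and with Y-linked RNA as a covariate 1 gene was called against non-KO morulae in place of 42. Kctd10, an adaptor of the cullin-3 ubiquitin ligase, was at 122 and 124 CPM in KO morulae, 26.6, 26.8 and 22 CPM in blastocysts and 44.8, 40.4 and 40.6 CPM in non-KO morulae. Its rise was 2.29 (SE 0.26, adjusted p = 0.00107) against blastocysts and 1.55 (adjusted p = 0.0363) against non-KO morulae; its exons overlap Myo1h on the opposite strand.

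Ing5, a reader of histone methylation in acetyltransferase complexes, was at 106 and 124 CPM against 37.6, 34.3 and 37.2 CPM in blastocysts and 35, 28.6 and 47.1 CPM in non-KO morulae (1.66 and 1.64, adjusted p = 0.00284 and 0.0227). The 2 non-KO groups overlapped, and both KO morulae lay above them. Ykt6, a SNARE of membrane fusion (1.85 and 1.52), Fam13b (1.51 and 1.70) and the WD-repeat protein Dcaf7 (1.16 and 1.52) were also higher, and in each both KO morulae lay above all 6 non-KO embryos. L1td1, an RNA-binding protein of pluripotent cells, was at 9.37 and 6.20 CPM against 98.7, 110 and 98.3 CPM in blastocysts and 30.0, 57.6 and 78.2 CPM in non-KO morulae (-3.73 and -2.84, adjusted p = 0.003 and 0.037).

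Hmga2, a chromatin architectural protein, was at 21.9 and 12.7 CPM against 79.0, 95.0 and 131 CPM in blastocysts and 89.3, 180 and 129 CPM in non-KO morulae (-2.56 and -2.95, adjusted p = 0.00789 and 0.037). Gdf3, given above, fell against both groups (-3.43 and -3.67), as did the mitochondrial proteins Tmem160 (-2.65 and -2.12) and Apopt1 (-2.52 and -1.83). In each of these 5 lower genes both KO morulae lay below all 6 non-KO embryos of the cross. For these and the 5 higher genes, lack of overlap with the blastocysts and a call against both groups were conditions of their choice. With ERCC scaling no gene was called against non-KO morulae, and against blastocysts Kctd10 and L1td1 kept their call while the other 8 lost it.

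**Figure D5:**
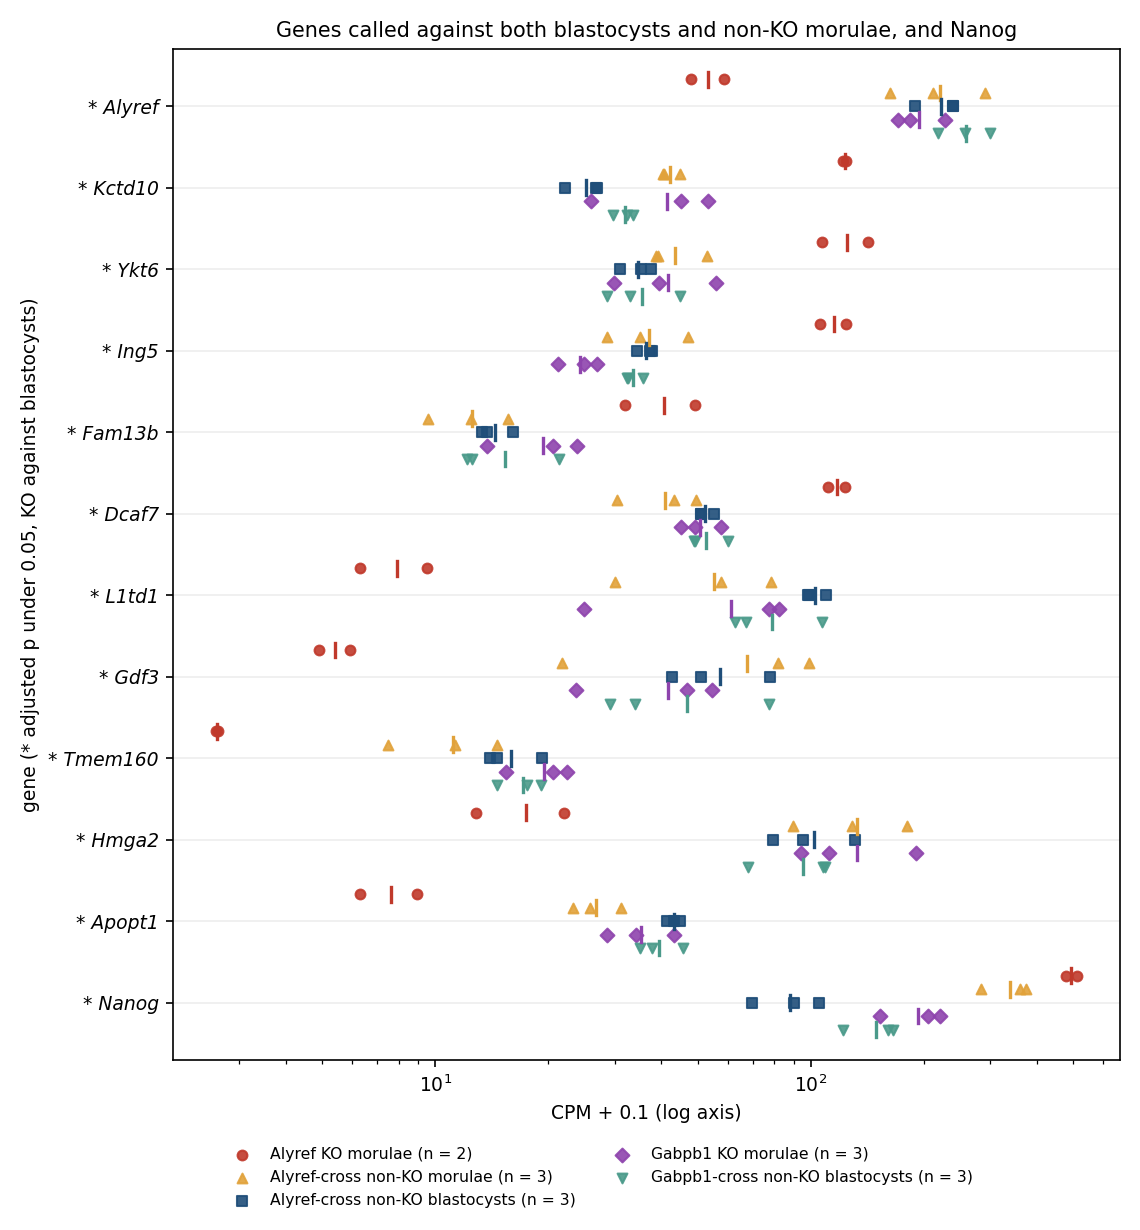
CPM in each embryo on a log axis (0.1 added), with a tick at each group mean, for Alyref, Nanog and the 5 largest rises and 5 largest falls called against both non-KO groups of the Alyref cross and beside them the Gabpb1 KO morulae and their non-KO blastocysts. KO morulae lie above all 6 non-KO embryos for Kctd10, Ykt6, Ing5, Fam13b and Dcaf7 and below them for L1td1, Gdf3, Tmem160, Hmga2 and Apopt1. Lack of overlap with the blastocysts was a condition of the choice of these genes.

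The differences from blastocysts were set against those of the Gabpb1 cross, with 3 KO morulae and 3 non-KO blastocysts that share no library with the Alyref comparison. The difference between the 2 KO-minus-blastocyst changes was called for 49 genes (0.266% of those tested), 30 with a positive and 19 with a negative value, and 2328 genes reached an unadjusted p under 0.05. Cross and targeted gene cannot be told apart in it. Ing5 (2.12, SE 0.29, adjusted p = 0.0083) and L1td1 (-3.37, SE 0.63, adjusted p = 0.0368) were among the called genes. For the actin and myosin list the median of this difference was -1.33 and for nuclear OXPHOS -0.58, with no gene of either list called, and for p53 targets it was 0.46.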

How the data were processed

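PolyA RNA of single embryos was sequenced with paired reads of 50 and 25 bases. The authors deposited a table of whole-number counts per gene, although its name announces FPKM. The submitters' processing notes name Trimmomatic, Trim Galore, cutadapt, STAR, featureCounts and the build mm10, without versions; the strand setting is not given in the sources used here. Column totals differ between embryos. Of 53379 gene rows, 50604 carry an identifier of GENCODE M21, all with the same start and end there.

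From the deposited counts and exon lengths FPKM values were derived, and genes reaching 1 FPKM in 2 embryos or more were tested. edgeR 4.0.16 (R 4.3.3) with TMM scaling and its quasi-likelihood F test were run on all 19 embryos with a mean per group (7 groups), so that the 2 KO morulae share the spread of the others. Benjamini-Hochberg adjustment covered the 18410 genes tested, and SE is the log2 fold change over the square root of F. The method was checked on simulated counts.

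Named genes are Alyref and members of the gene lists. Among called genes without overlap and with a mean FPKM of 5 or more, the 12 largest rises and falls and the 5 largest each way that were also called against non-KO morulae were added. So were the 5 most abundant genes with 3 counts or fewer in each embryo of 1 group, and the 5 called genes with the largest differences in mean FPKM each way. Alternatives covered scaling, filters, embryos, covariates and tools. The comparison, its genes and the lists were chosen with earlier results of these data known. Promoter sequences are from RefSeq (GRCm38.p6). Gene counts between 7486125 and 31536282 per embryo limit the precision at low levels. The difference between the crosses was added after seeing the data. Results for a few listed genes are not reported here.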

Additional observations from a re-analysis of the deposited data

Results flagged for a closer look

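In 6 genes named above, the change from non-KO blastocysts to KO morulae differed between the Alyref and the Gabpb1 cross by the test of that difference itself (edgeR's quasi-likelihood test, adjusted over all genes). The difference of log2 fold changes was 2.12 for Ing5 (adjusted p = 0.0083), 2.12 for Nanog (0.0259), 1.91 for Kctd10 (0.0307), -2.84 for Tmem160 (0.0259), -2.36 for Apopt1 (0.0296) and -3.37 for L1td1 (0.0368). In the Gabpb1 cross the same change was -0.46 for Ing5, 0.38 for Nanog, 0.38 for Kctd10, 0.19 for Tmem160, -0.16 for Apopt1 and -0.36 for L1td1, none of them called. Nanog, for example, was at 221, 153 and 205 CPM in Gabpb1 KO morulae and at 122, 165 and 160 CPM in their blastocysts. All 6 differences lost their call with ERCC scaling, under which 1 gene was called in all and the differences themselves were 2.06 for Ing5, 1.83 for Nanog, 2.01 for Kctd10, -2.95 for Tmem160, -2.63 for Apopt1 and -3.64 for L1td1. All 6 also lost it without KO morula 2. Without KO morula 1, or without any one blastocyst, Ing5 kept its call and the other 5 lost it. With the replicate block 4 calls were lost (Kctd10, Tmem160, Apopt1 and L1td1), with Y-linked RNA as a covariate 3 (Kctd10, Apopt1 and L1td1), and without the expression filter that of Kctd10.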

How the results depend on the processing

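The 2389 calls between KO morulae and blastocysts became 527 with ERCC scaling, 5210 in a fit of the 5 embryos alone, 4462 against the mean of the 3 blastocyst groups and 5343 with limma's voom and embryo weights. Leaving out 1 of the 5 embryos gave 299 to 1202 calls. The other 9 alternatives stayed within 1.5 times, among them DESeq2 (3464) and limma on log2(FPKM + 1) (2844). With the replicate number as a block 1798 genes were called. Deviations from the group mean correlated at 0.01 between the embryos numbered 1 and at -0.07 between those numbered 2. With 2 KO embryos the deviations of 1 mirror those of the other, so these values cannot show whether the numbers pair embryos. The 49 genes whose change differed between crosses became 1 with ERCC scaling, 19 with the replicate block, 418 with DESeq2, 106 with limma, 222 with voom, and 6 to 11 with 1 embryo left out. The difference in the log2 ratio to ERCC counts ranged from 0.23 to 0.37. No named called gene changed sign in any alternative. Medians of gene lists did: those of the integrated stress response, imprinted genes, cytosolic and mitochondrial ribosome as given above, that of Y-linked genes (-0.45, and 0.34 with Y-linked RNA as a covariate), and those of Hippo, epiblast, mRNA export, cell cycle and mitochondrially encoded genes, which lay between 0.02 and 0.08 and turned negative under at least 3 alternatives each. The 42 calls between KO and non-KO morulae became 0 to 841. The cause of these shifts was not tested. The fits that leave out an embryo also have a smaller group.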
